A study of Mus musculus with 3 samples.

Results

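The 9 genes described here, Mbp, Mog, Mag, Mobp, Cnp, Mal, Cldn11, Ermn and Opalin, encode proteins of central nervous system myelin. They were taken by symbol from a table of 16610 genes, and all 9 were found and lay above the filter used below. Ribosome-bound RNA from the middle section of mouse brain hemispheres was sequenced after a RiboTag pull-down. In this method a ribosomal protein is given an epitope tag in selected cells, and an antibody to the tag recovers those ribosomes with the transcripts on them. The groups were the left hemisphere of animals that had middle cerebral artery occlusion (MCAO, a stroke model) for 1 h, the right hemisphere of animals with MCAO, called contralateral here, and the right hemisphere of animals without MCAO, called the control. Tissue was taken after 3 days in all 3 groups. Each group was 1 library made from a pool of 3 animals with 2 technical replicates, so differences could not be set against a spread between replicates and have no p-value. The series title names astrocytes, and the strain, age, RiboTag allele and Cre driver are not given in the sources used here. No left hemisphere without MCAO was analysed here, so side and occlusion cannot be told apart.

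Myelin is the sheath that oligodendrocytes wrap around axons. Most of it is compact, with its membrane layers held together by basic proteins and proteolipids, and the rest is noncompact, with cytoplasm-filled loops, channels and an inner layer facing the axon that carry other proteins. The messenger RNA of Mbp is known to travel into oligodendrocyte processes and to be translated at the sheath. Oligodendrocytes and myelinated fibres are known to be damaged by ischaemia in rodent white matter.

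The recovered depth was 25930258 reads in the MCAO left library, 33886604 in the contralateral library and 31833456 in the control. Transcripts of several cell types were present besides those of myelin. The summed normalised count of 10 astrocyte markers was 494679 in the MCAO left library, 478074 in the contralateral library and 459451 in the control, and that of 9 neuron markers was 168833, 176435 and 191604 in the same order. No marker of the astrocyte, neuron, microglia or endothelial list was at the listed minimum in any library. In such libraries fewer cells of a type, less RNA per cell and a different recovery in the pull-down cannot be told apart. Since the Cre driver is not given, the cells that gave the myelin transcripts could not be identified.

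By their median the myelin genes were slightly higher in the MCAO left library, and they did not move as one. Mag and Cldn11 were the highest relative to the control, Ermn and Mog were higher by less, and Mbp, Mobp and Mal were lower than in the control. The median log2 difference of the 9 genes from the control was 0.19, against a median of -0.0027 over all 14906 genes with a mean of at least 20 normalised counts, and it was -0.066 when the libraries were scaled to the astrocyte markers. Against the contralateral library the median was 0.28, with all 9 genes above the contralateral value, and with 8 above it at equal totals per library and 6 when scaled to the astrocyte markers. Above the control lay 6 of the 9 genes, 4 of the 9 when scaled to the astrocyte markers and 7 when scaled to the neuron markers. Relative to the median of all genes, the myelin genes lay 0.18 to 0.20 higher on the log2 scale against the control under every scaling, pseudocount and filter tried, and 0.28 to 0.29 higher against the contralateral library. A scaling shifts both medians almost equally, so these narrow ranges were largely fixed in advance and do not test the scaling.

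None of the 9 genes reached a 2-fold difference in any of the 3 comparisons. At that size 5.37% of all genes differed in either direction between the MCAO left library and the control, 8.14% between the MCAO left and contralateral libraries and 5.53% between the contralateral library and the control. A smaller size was therefore also counted, at least 25% higher or at least 20% lower, which is the same distance on the log scale. At this size 4 of the 9 genes were higher relative to the control and 0 were lower, where 19.6% of all genes were higher and 16.4% lower. Against the contralateral library 3 of the 9 were higher and 0 lower, where 12.3% of all genes were higher and 13.5% lower. Mag, Cldn11 and Ermn passed this size against both right hemispheres, which 8.95% of all genes did. The comparisons with the control and with the contralateral library share the MCAO left library. Among the 12437 genes with a mean of at least 100 normalised counts, a range that holds all 9 genes, 16.5% were at least 25% higher against the control, 9.52% against the contralateral library and 6.63% against both.

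**Figure D1:**
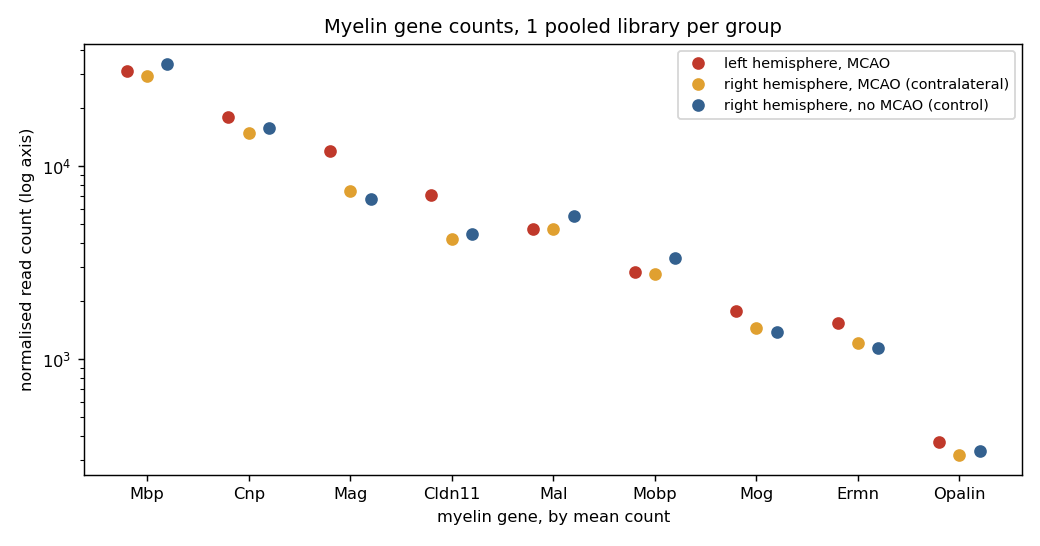
Normalised read counts (log axis) of the 9 myelin genes, with 1 point per pooled library. For Mag the MCAO left library stands at 12011, above 7386 in the contralateral library and 6772 in the control, while for Mobp the control, at 3347, is the highest of the 3. Counts are not divided by transcript length, so heights are not compared between genes.

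Among the 9 members, Mbp, Mobp and Mal had the lowest ratios of the MCAO left library to either right hemisphere. This ranking covers the 9 members only and does not describe the genes of compact myelin as a class. Mbp (chromosome 18, 82475091 to 82585637), which encodes myelin basic protein, the adhesive of the cytoplasmic membrane faces, had 31017 normalised counts in the MCAO left library, 29309.6 in the contralateral library and 34021.8 in the control. The MCAO left value thus lay between both right hemispheres, at 0.912-fold of the control (0.897 to 0.926) and 1.06-fold of the contralateral value (1.04 to 1.08). Intervals of ratios are 95% counting intervals and hold no variation between animals. The Mbp locus also gives Golli transcripts, which are made in other cells as well and were not separated in the table.

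Mobp (chromosome 9, 120149742 to 120181488) encodes a second basic protein of compact myelin. It had 2824 normalised counts in the MCAO left library, 2772 in the contralateral library and 3347 in the control. The 2 hemispheres of the MCAO animals were close, at a ratio of 1.02 (0.966 to 1.07), and the MCAO left value was 0.844-fold of the control (0.801 to 0.889). Mal (chromosome 2, 127633226 to 127656695), encoding a proteolipid of myelin and of membrane transport vesicles, behaved alike. It had 4739 normalised counts in the MCAO left library, 4726 in the contralateral library and 5487 in the control, so that the MCAO left value was 0.864-fold of the control (0.829 to 0.90) and 1.00-fold of the contralateral value (0.962 to 1.04). The intervals of Mobp and Mal overlapped in every comparison. The contralateral values of both were also lower than the control values, at 0.828-fold (0.789 to 0.869) for Mobp and 0.861-fold (0.83 to 0.894) for Mal, and Mbp was at 0.861-fold there (0.849 to 0.875).

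The highest differences of the MCAO left library from both right hemispheres were those of Mag and Cldn11. Mag (chromosome 7, 30899175 to 30914922) encodes myelin-associated glycoprotein, a sialic acid-binding receptor on the innermost myelin layer that faces the axon and a known inhibitor of neurite outgrowth. It had 12011 normalised counts in the MCAO left library, against 7386 in the contralateral library and 6772 in the control. Its value in the MCAO left library stood apart from both right hemispheres, at 1.77-fold of the control (1.72 to 1.83) and 1.63-fold of the contralateral value (1.58 to 1.67). Of all genes past the filter 5.45% were at or above the difference of Mag from the control, and 5.04% were at or above its difference from the contralateral library.

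Cldn11 (chromosome 3, 31149920 to 31164326) encodes claudin-11, the tight junction protein between myelin layers. It had 7094 normalised counts in the MCAO left library, 4167 in the contralateral library and 4459 in the control. Here too the MCAO left library was the highest and both right hemispheres were close to each other. The ratio was 1.59 to the control (1.53 to 1.65) and 1.70 to the contralateral value (1.64 to 1.77), and 7.51% and 4.54% of all genes were at or above these differences. The intervals of Mag and Cldn11 did not overlap against the control and did overlap against the contralateral library. Cnp (chromosome 11, 100574909 to 100591875), encoding a cyclic nucleotide phosphodiesterase that keeps the cytoplasmic channels of myelin open, had 18026 normalised counts in the MCAO left library, 14763 in the contralateral library and 15835 in the control. Its ratio was 1.14 to the control (1.11 to 1.16) and 1.22 to the contralateral value (1.194 to 1.248). Cnp overlaps the annotated gene Dnajc7 over 9058 bases, and since no statement on strand was found, reads of both may be mixed there. Dnajc7, named for this overlap, had 4980.3 normalised counts in the MCAO left library, 5332 in the contralateral library and 4677 in the control.

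The remaining 3 members are surface and cytoskeletal proteins. Ermn (chromosome 2, 58045115 to 58052864), encoding the actin-binding oligodendrocyte protein ermin, had 1544 normalised counts in the MCAO left library, 1216 in the contralateral library and 1145 in the control. This was 1.35-fold of the control (1.246 to 1.461) and 1.27-fold of the contralateral value (1.18 to 1.37). Mog (chromosome 17, 37010740 to 37023398) encodes the immunoglobulin-like glycoprotein of the outermost myelin surface, an autoantigen in demyelinating disease. It had 1766 normalised counts in the MCAO left library, 1451 in the contralateral library and 1381 in the control, a ratio of 1.28 to the control (1.19 to 1.38) and of 1.22 to the contralateral value (1.13 to 1.31). For Ermn and Mog the MCAO left library was highest, and their intervals overlapped. Opalin (chromosome 19, 41061959 to 41077113), a transmembrane glycoprotein of oligodendrocytes, had 369 normalised counts in the MCAO left library, 317 in the contralateral library and 332 in the control. It rested on 314, 357 and 343 reads in the same order, and its intervals included 1 against the control (0.951 to 1.30) and against the contralateral library (0.999 to 1.36). A difference in Opalin was therefore not detectable at this depth.

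**Figure D2:**
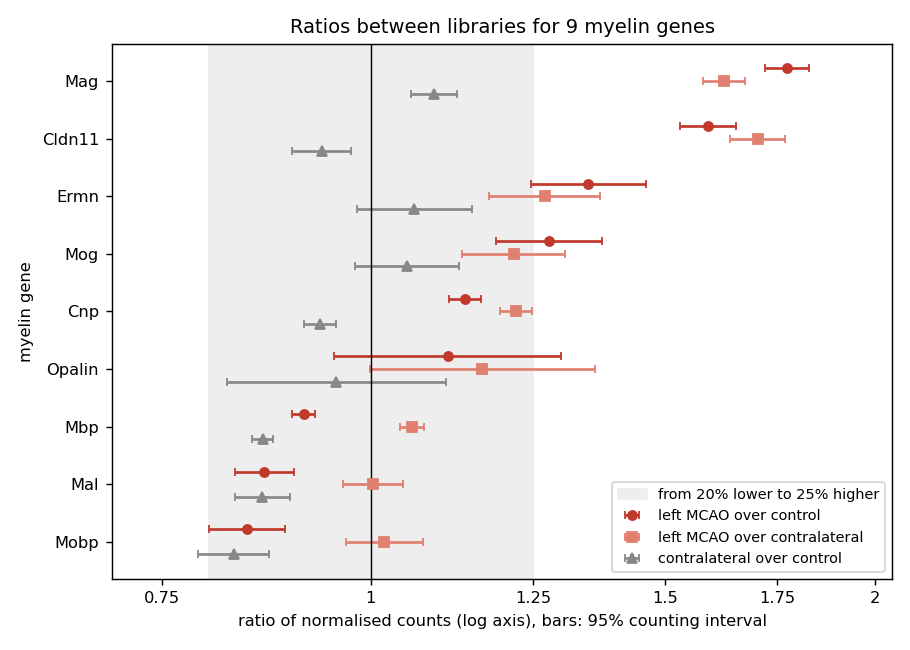
Ratios of normalised counts (log axis) between libraries for each myelin gene, with bars for 95% counting intervals and the range from 20% lower to 25% higher shaded. Mag and Cldn11 lie between 1.59 and 1.77 in both comparisons of the MCAO left library, while Mbp, Mal and Mobp lie between 0.844 and 1.06. All ratios of the contralateral library to the control lie between 0.828 and 1.09.

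Between the contralateral library and the control, 0 of the 9 genes were 25% higher or 20% lower. Of all genes 17.2% were higher and 11% lower at these sizes. The median log2 difference of the 9 genes was -0.10, between -0.27 for Mobp and 0.13 for Mag. Mobp, Mal and Mbp were lower than the control here too, at 0.828-fold, 0.861-fold and 0.861-fold, with intervals below 1. The median log2 difference of the 9 genes was 0.031 when the libraries were scaled to the neuron markers. It was -0.23 when they were scaled to the astrocyte markers, where 3 of the 9 and 23.3% of all genes were at least 20% lower. The intervals of Mog, Ermn and Opalin included 1, and Mag was at 1.09-fold of the control (1.06 to 1.13).

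How the 9 genes shared their reads among themselves was also compared, a measure added after the values were seen that needs no scaling between libraries. The 9 genes held 67494 reads or 0.260% of the MCAO left library, 74507 or 0.220% of the contralateral library and 75146 or 0.236% of the control. Within these reads the share of Mbp was 39.1% in the MCAO left library (38.7 to 39.4, exact Clopper-Pearson interval), 44.3% in the contralateral library (44.0 to 44.7) and 46.7% in the control (46.4 to 47.1). The share of Mag was 15.1% in the MCAO left library (14.9 to 15.4), 11.2% in the contralateral library (10.9 to 11.4) and 9.3% in the control (9.1 to 9.51). The reads were thus divided differently in the MCAO left library, with a smaller part for Mbp and a larger part for Mag. Cldn11 held 8.94% there (8.72 to 9.15), against 6.3% in the contralateral library and 6.13% in the control. Cnp held nearly the same share in all 3 libraries, between 21.8% and 22.7%.

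Ratios between members restate the same counts, so they are not separate support for this division. The count ratio of Mag to Mbp was 0.387 in the MCAO left library, 0.252 in the contralateral library and 0.199 in the control, a change of 1.95-fold against the control. The ratio of Cldn11 to Mbp was 0.229, 0.142 and 0.131 in the same order. Mobp and Mal kept close to Mbp, since the ratio of Mobp to Mbp was 0.0911 in the MCAO left library, 0.0946 in the contralateral library and 0.0984 in the control, and that of Mal to Mbp was 0.153, 0.161 and 0.161. Mbp, Mobp and Mal thus kept nearly the same proportions in the 3 libraries, which follows from their similar ratios between libraries given above. Mag and Cldn11 did so less closely, with a ratio of Mag to Cldn11 of 1.69 in the MCAO left library, 1.77 in the contralateral library and 1.52 in the control. Between the right hemispheres, the ratio of Mag to Mbp in the contralateral library was 1.27-fold that in the control.

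**Figure D3:**
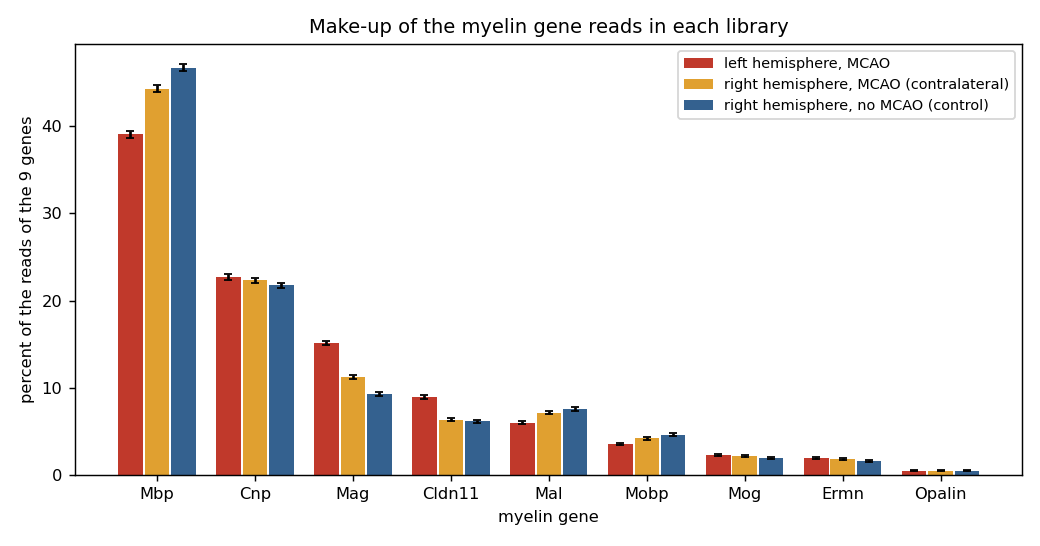
Percent of the reads of the 9 myelin genes that each gene held in each library, with bars for 95% exact binomial intervals. The share of Mbp is 39.1% in the MCAO left library and 46.7% in the control, and that of Mag is 15.1% and 9.3%. Shares depend on transcript length and are compared between libraries only.

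The promoters of the pair with the highest differences, Mag and Cldn11, and of the pair with the lowest differences from the control, Mobp and Mal, are shown because these pairs stood at opposite ends of the list. Each line gives the 250 bases before the annotated start, 5′ to 3′ on the gene's strand, from RefSeq on GRCm38.p6, and 8 of the 9 genes were matched in that table. Capitals mark matches on either strand to CTGGCAC, the core bound by the oligodendrocyte regulator MYRF, and to ACAAAG or ACAATG, cores bound by SOX factors such as SOX10. No 2 marked matches overlap. The windows are chr7:30914923-30915172 on the minus strand for Mag, chr3:31149670-31149919 on the plus strand for Cldn11, chr9:120149492-120149741 on the plus strand for Mobp and chr2:127656696-127656945 on the minus strand for Mal.
Mag: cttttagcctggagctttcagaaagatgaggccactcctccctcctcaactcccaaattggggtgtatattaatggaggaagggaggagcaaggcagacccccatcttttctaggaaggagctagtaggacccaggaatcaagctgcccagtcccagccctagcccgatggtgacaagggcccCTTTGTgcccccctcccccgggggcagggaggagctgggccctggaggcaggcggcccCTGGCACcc
Cldn11: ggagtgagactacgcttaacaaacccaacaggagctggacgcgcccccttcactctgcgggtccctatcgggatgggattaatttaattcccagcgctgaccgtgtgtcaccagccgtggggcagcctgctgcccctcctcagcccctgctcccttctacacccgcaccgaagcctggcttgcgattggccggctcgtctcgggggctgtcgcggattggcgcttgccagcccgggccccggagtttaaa
Mobp: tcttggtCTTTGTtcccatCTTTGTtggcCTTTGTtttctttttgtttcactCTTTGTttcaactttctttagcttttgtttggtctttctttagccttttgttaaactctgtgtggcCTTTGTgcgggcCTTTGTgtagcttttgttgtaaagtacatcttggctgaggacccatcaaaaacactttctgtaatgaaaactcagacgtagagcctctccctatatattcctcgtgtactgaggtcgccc
Mal: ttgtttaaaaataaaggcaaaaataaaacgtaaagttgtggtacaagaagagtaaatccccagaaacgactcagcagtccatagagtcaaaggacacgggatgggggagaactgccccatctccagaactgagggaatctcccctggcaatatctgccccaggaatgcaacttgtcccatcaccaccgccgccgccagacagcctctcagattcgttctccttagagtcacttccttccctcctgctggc
Mag held 1 MYRF match, starting 9 bases before the start, and 1 SOX match 67 bases before it. Mobp held 6 SOX matches between 243 and 120 bases before its start, in a repeated stretch. Cldn11 and Mal held neither, which says only that these letters are absent from these windows. The table gives Mag further starts, and the window of 1 of these held neither match. Mag was counted once, as a gene with a match in any of its windows. The 8 genes had 10 windows, so the counts per gene below and the shares per window are unlike measures. Over the 8 genes, 2 (Mag and Cnp) held the MYRF letters, where 4.19% of all 32851 promoter windows did, and 5 held the SOX letters, where 25.2% did. The E-box CAGCTG was found in 0 of the 8 and in 13% of all windows, GGGCGG in 1 of the 8 and in 32.7%, and TATAAA in 0 of the 8 and in 12.4%. Among the 15855 windows of genes in the deposited table these shares were 4.37% for the MYRF letters, 19% for the SOX letters, 12.7% for CAGCTG, 53.2% for GGGCGG and 7.1% for TATAAA. In each pair 1 gene held matches and the other held none. A link between the matches and the differences was not tested.

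Other genes of the oligodendrocyte lineage were described from lists written with earlier results of these data known. The 5 lists of the lineage were those of other myelin proteins, mainly lipid enzymes, mainly transcription factors, mature cells and newly formed cells. The list of precursors was left out, although some of its genes, Olig2 among them, are also on these lists. In the 5 lists 78 genes passed the filter. Of these 28 were at least 25% higher in the MCAO left library relative to the control and 7 at least 20% lower, with a median log2 difference of 0.18, close to that of the 9 myelin genes. Over all genes 19.6% were higher and 16.4% lower at these sizes, which also stands beside the counts of the single lists that follow. The median was 0.20 against the contralateral library, with 25 higher and 3 lower, where 12.3% of all genes were higher and 13.5% lower.

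Among 19 other proteins of the myelin sheath, 7 were at least 25% higher relative to the control and 1 lower, with a median of 0.20. Gjb1, the gap junction gene for connexin-32 of myelin, had 618 normalised counts in the MCAO left library, 361 in the contralateral library and 335 in the control. Cd9, a tetraspanin gene of myelin that many other cells also express, had 4957, 1732 and 1362 in the same order. Cd9 was the 1 gene of this list past 2-fold against the control.

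Of 13 genes, mainly enzymes of myelin lipid synthesis and turnover, 5 were at least 25% higher relative to the control and 2 lower, with a median of 0.22. Their summed normalised count was 32346 in the MCAO left library, 29352 in the contralateral library and 32146 in the control. The sum is weighted to the genes with the highest counts, and 10 of the 13 lay above the control. Ugt8a, which makes galactosylceramide, had 2814 normalised counts in the MCAO left library, 1983 in the contralateral library and 1639 in the control. Elovl1, a fatty acid elongase gene, had 649, 394 and 355 in the same order, and the glycolipid transfer gene Gltp had 2106, 1485 and 1439. In all 3 the MCAO left library was the highest.

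A list of 13 genes, mainly transcription factors of the lineage, had a median of 0.10, with 5 of 13 at least 25% higher and 2 lower. Olig2, which specifies the lineage, had 1714 normalised counts in the MCAO left library, 1417 in the contralateral library and 813 in the control, and Nkx2-2 had 346, 306 and 217. Both were thus higher in both hemispheres of the MCAO animals than in the control. Zfp536 had 36.5 normalised counts in the MCAO left library, 54.1 in the contralateral library and 77.5 in the control. Some of these factors, Olig2 among them, are also made in precursor cells and in some astrocytes.

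In a list of 21 other transcripts of mature oligodendrocytes, 8 were at least 25% higher relative to the control, 4 of them past 2-fold, and 1 was lower, with a median of 0.21. Klk6, a secreted serine protease gene of oligodendrocytes, had 825 normalised counts in the MCAO left library, 94.0 in the contralateral library and 90.1 in the control. Its ratio of 9.15 to the control was far above that of any of the 9 myelin genes. Trf, the transferrin gene, had 25179 normalised counts in the MCAO left library, 9189 in the contralateral library and 7713 in the control, and the actin-severing gene Gsn had 4518, 2118 and 1272. Trf and Gsn are also expressed outside oligodendrocytes, so their source was not identified.

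Genes of earlier stages of the lineage had medians nearer to 0 against the control. Of 13 genes of newly formed oligodendrocytes, 1 of them found under an older symbol, 3 were at least 25% higher and 1 lower, with a median of 0.025. Against the contralateral library 5 of the 13 were higher and 1 lower, with a median of 0.23, close to that of the mature list at 0.22. Bcas1, a marker of early myelinating cells, had 2992 normalised counts in the MCAO left library, 2067 in the contralateral library and 2280 in the control. The cytoskeletal adaptor gene Lims2 had 165, 142 and 123 in the same order, and Tnr, encoding the matrix protein tenascin-R, had 199, 266 and 333. Of 11 precursor genes 3 were higher against the control, 2 of them past 2-fold, and 2 were lower, with a median of -0.05. The 2 past 2-fold were Cspg4 and Olig2, and Olig2 was already counted in the list of mainly transcription factors. Against the contralateral library 2 of the 11 were higher and 0 lower, with a median of 0.059. Cspg4, encoding the NG2 proteoglycan of precursors and pericytes, had 1276 normalised counts in the MCAO left library, 454 in the contralateral library and 554 in the control, and Lhfpl3 had 436, 528 and 587.

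Genes described as raised in injured oligodendrocytes had a median of 0.95, with 6 of 9 at least 25% higher relative to the control and 1 lower. Besides Klk6, these were led by C4b, a complement gene, at 6686 normalised counts in the MCAO left library, 2254 in the contralateral library and 1525 in the control, and by the protease inhibitor gene Serpina3n, at 25376, 8471 and 6171. C4b and Serpina3n are also genes of reactive astrocytes. Of 8 genes of peripheral myelin, made by Schwann cells, 4 passed the filter, and their differences from the control had both signs. Pmp22 had 1399 normalised counts in the MCAO left library, 956 in the contralateral library and 943 in the control, Prx had 54.1, 63.0 and 31.0, and the Schwann cell regulator Egr2, also an activity gene of neurons, had 111, 154 and 217.

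**Figure D4:**
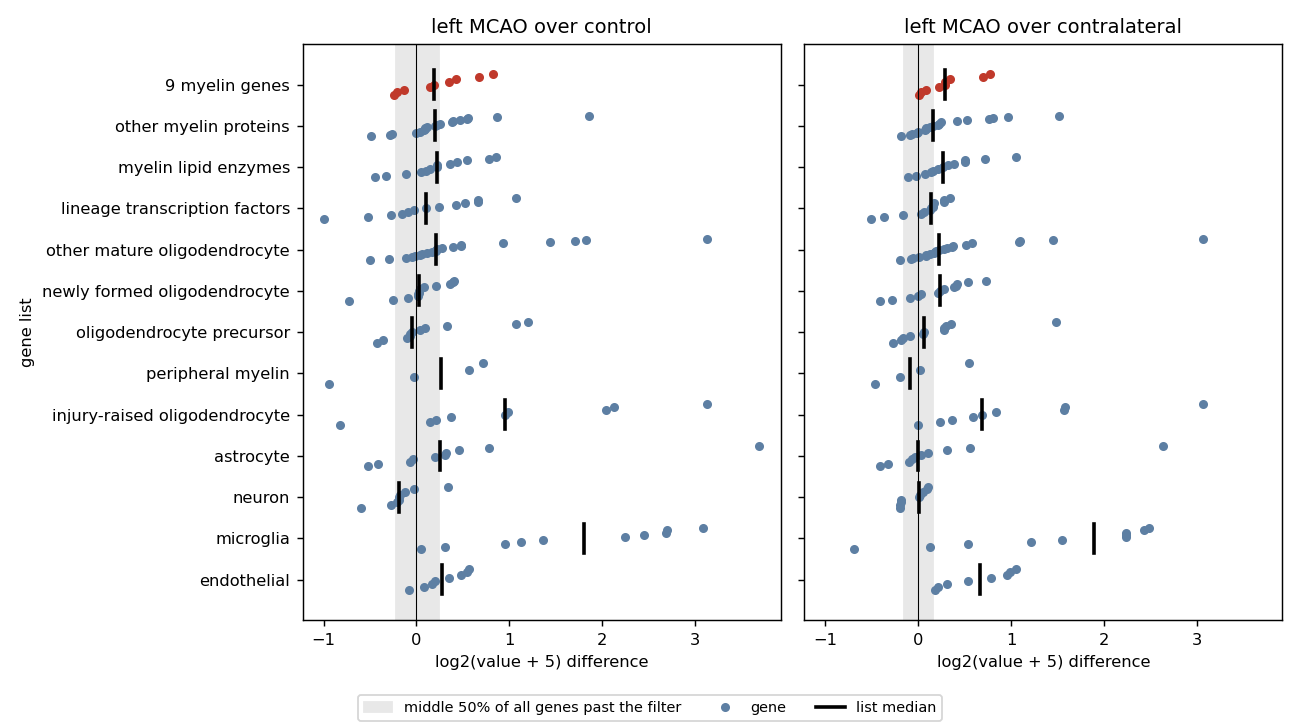
Log2(value + 5) differences of the MCAO left library from both right hemispheres, for the 9 myelin genes and 12 further lists, with 1 point per gene past the filter. Black marks are list medians and the shaded band holds the middle 50% of all genes. The lists labelled as lipid enzymes and as lineage transcription factors hold mainly, not only, such genes. The median of the myelin genes is 0.19 and 0.28, and that of the microglia list is 1.81 and 1.89.

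Markers of other cell types moved in the same libraries. Of 10 microglia and myeloid markers 8 were at least 25% higher in the MCAO left library relative to the control, with a summed normalised count of 19575 in the MCAO left library, 6549 in the contralateral library and 6351 in the control. Cd68, a lysosomal gene of phagocytes, had 818, 147 and 92.0 in the same order, the receptor gene Trem2 had 822, 143 and 124, and the complement gene C1qb had 2325, 492 and 355. Of 9 neuron markers 1 was higher at that size and 1 lower, with a median of -0.19, led by Syt1 at 22789 normalised counts in the MCAO left library, 26043 in the contralateral library and 34548 in the control. Nefm had 15800, 14806 and 12491 in the same order, and Rbfox3 had 3806, 4376 and 4605. Of 10 astrocyte markers 3 were higher and 2 lower, with a median of 0.25. Gfap, the filament gene of reactive astrocytes, was the highest of these at 12.9-fold of the control, Sox9 was at 1.72-fold and Slc1a3 at 0.695-fold. The 8 endothelial markers had a median of 0.28 and a summed normalised count of 907, 562 and 732, with Flt1 at 1.51-fold of the control, Cldn5 at 1.48-fold and Cdh5 at 1.43-fold. The part of these cell types in the differences of the myelin genes was not tested.

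The pattern of the myelin genes over the 3 libraries was shared by many other genes. Among 6137 other genes with a mean of at least 1000 normalised counts, the 5 nearest to the median pair of log2 differences of the 9 genes were Esd, Tuba1c, Phldb1, Ccdc93 and Taf1, at Euclidean distances of 0.0079 to 0.018. Within a distance of 0.1 lay 190 of these genes, or 3.1%, and 2 of the 9 myelin genes. The other members lay farther from their own median.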

How the data were processed

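Each value column of the deposited table carries the name given in 1 sample's description, and 0 value columns were unused. The values are a signal that the authors deposited in normalised form, namely read counts divided by 1 size factor per library, with values below 1 listed as 1. Per the submitters' processing notes, the tools were DESeq2, HISAT2 2.0.11, CASAVA 1.8, R 3.3.1 and Partek 6.6 and the build was mm10, with no roles given. From these values 1 read was found to be worth 1.18 normalised counts in the MCAO left library, 0.887 in the contralateral library and 0.969 in the control, and 99.9% of the values above 1 in each column were whole within 0.1 read. Recovered reads gave exact Clopper-Pearson 95% intervals, which hold counting error alone, as no molecular identifiers separate PCR copies.

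Differences were taken as log2(value + 5), which understates those of low genes. The filter was a mean of 20 or more, met by 14906 genes. Folds are ratios of normalised counts without the pseudocount. A gene was counted where it was at least 25% higher or 20% lower, or 2-fold higher or lower, on the log2(value + 5) scale. The members, the 12 further lists and the smaller size were chosen with earlier results of these data known. Named genes were the 9 members, up to 3 per further list with the largest difference of the MCAO left library from the control, and the 5 nearest in pattern. A gene that this rule names is not reported here. The alternatives were pseudocounts of 1 and 20, other filters, and 4 scalings, including edgeR 4.0.16 TMM factors on recovered reads (R 4.3.3). Gene positions and promoters came from RefSeq tables on GRCm38.p6, which is mm10. The procedure was tested on simulated reads. Python 3.11.15 with scipy 1.17.1 was used.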

Additional observations from a re-analysis of the deposited data

How the results depend on the processing

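No paired analysis was possible because each group had 1 library, and leaving out a replicate was likewise not possible. Pseudocounts of 1 and 20, filters and TMM factors left every count of members past either size the same. They moved no median of the 9 members beyond the counting interval of the single member nearest to it, recentred on that median. Equal totals per library did likewise, with 8 in place of 9 members above the contralateral value. Of the other lists, the peripheral myelin median against the control was -0.029 both without a filter and with the filter at a mean of 100, against 0.27 with the filter at 20. Scaling to the astrocyte markers moved the median of all genes by -0.25 against the control. There the members' median was -0.066 against the control, 0.16 against the contralateral library and -0.23 for the contralateral library against the control. Against the control 2 members were at least 25% higher and 3 at least 20% lower. Of all genes 9.33% were higher and 41.1% lower at these sizes. For 3 members the contralateral value was at least 20% below the control, as it was for 23.3% of all genes. Scaling to the neuron markers moved the median of all genes by 0.18 against the control. The members' medians were then 0.37 against the control and 0.031 for the contralateral library against the control. Then more members than on the deposited scale were at least 25% higher than in the control, and 1 member, Mag, was 2-fold higher. Of all genes 33.8% were at least 25% higher and 5.57% at least 2-fold higher there. Against the contralateral library 5 members were 25% higher, as were 15.4% of all genes. On the deposited scale the astrocyte and neuron lists had medians of 0.25 and -0.19 against the control. Without Mbp, Mobp, Mal or Opalin the median against the control was 0.27, without Cnp it was 0.25, and without Mag, Cldn11, Ermn or Mog it was 0.17. Without the 100 genes with the most reads the members held 0.319% of the MCAO left library, 0.270% of the contralateral library and 0.289% of the control. Depth limits Opalin most.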
